A study of Mus musculus with 9 samples.

Results

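The actin protrusion and adhesion genes described here are 46 genes that build, remodel and anchor actin filaments, out of 54456 gene names in the count table. The rule lists them by name for their known roles and uses no measured value, although the list was drawn up with earlier results of these data known, and all 46 were in the table and passed the filter on low counts that left 18051 genes for testing. They comprise 7 formins, 8 subunits of the Arp2/3 complex, 5 activators and membrane linkers of that complex, 3 Ena/VASP proteins, 6 genes of monomer supply, severing and capping, 5 bundling and cross-linking genes, 2 membrane-cortex linkers, 4 focal adhesion genes, and 6 genes of non-muscle myosin and tropomyosin.

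Mammary epithelial cells of wild-type (WT) mice were separated by flow cytometry and reassembled into aggregates of 3 kinds, whose RNA was sequenced: basal cells only, luminal cells only, or a mixture given as 50% in the labels. The mammary duct has an inner layer of luminal cells and an outer layer of contractile basal (myoepithelial) cells. Every aggregate lay in 80% Matrigel, a basement membrane gel, near heparin sulfate beads (100 to 150 µm across) carrying FGF10 from a solution of 100 µg/mL, a growth factor towards which mammary epithelium migrates, and was collected after 55 h by the titles or 56 h by the treatment label. All groups carried the same genotype and the same FGF10 exposure, so the comparisons are between cell compositions, with no library without FGF10 among them. There were 3 libraries per group. The labels do not say whether these came from separate mice or cultures, so p-values measure only the spread between these libraries, which may be technical.

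Cells move by pushing their leading edge forward with growing actin filaments and by holding on to their surroundings through focal adhesions. Formins and Ena/VASP proteins elongate straight filaments, the Arp2/3 complex starts branches when WASP or WAVE proteins switch it on, cofilin and gelsolin sever old filaments, and profilin feeds monomers back. Fascin and alpha-actinin bundle filaments, talin, vinculin, paxillin and zyxin couple them to integrins, and non-muscle myosin II pulls on them. Basal mammary cells are the contractile cells of the gland, and many of their hallmark genes belong to the smooth muscle programme.

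The libraries held 15585324 to 19164405 counts assigned to genes. Krt5, a basal keratin, was between 1630 and 2110 CPM (counts scaled to library size) in the basal libraries, between 13 and 23.2 CPM in the luminal ones and between 1080 and 1160 CPM in the mixed ones, and the luminal mucin Muc1 was at 3.69 to 5, 206 to 268 and 156 to 169 CPM in the same order, as the labels state. Other markers differed less between the pure groups. Krt14, another basal keratin, was at 4200 to 4880 CPM in basal and 1290 to 2550 CPM in luminal libraries. The luminal keratin Krt8 was at 914 to 1050 CPM in basal and 1250 to 2000 CPM in luminal libraries. The column names of the count table carry 3 code prefixes whose meaning the sources do not give: 1 covers basal library 2 and all mixed libraries (called series A here), 1 covers basal libraries 1 and 3 and luminal library 1 (series B), and 1 covers luminal libraries 2 and 3 (series C). Basal library 2 stood apart from the other basal libraries (Pearson's r of log2 CPM across genes 0.927 and 0.936, against 0.986 between the other two). Series and group overlap so far that the mixed against luminal comparison and the series cannot be told apart, so results below are also given from a fit with the series as a term (4 residual degrees of freedom). In that fit luminal against basal rests on luminal library 1 against basal libraries 1 and 3, and mixed against basal rests on the mixed libraries against basal library 2.

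**Figure D1:**
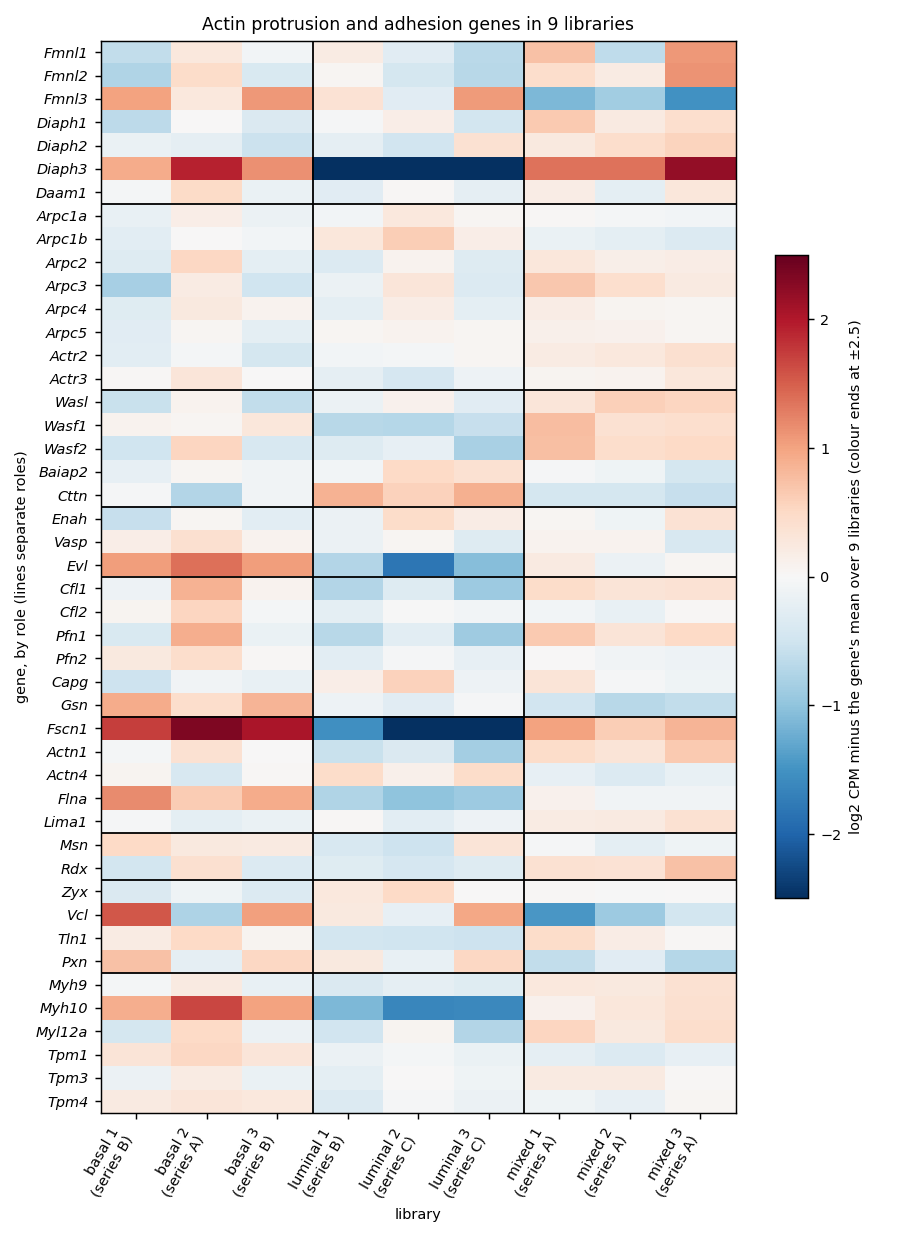
Log2 CPM of the 46 genes (rows, grouped by role) in the 9 libraries (columns), as the difference from each gene's mean over the libraries, with the colour scale ending at 2.5 in either direction. Fscn1, Diaph3, Myh10 and Evl are low in all 3 luminal libraries, Fmnl3 is low in all 3 mixed libraries, and basal library 2 differs from the other basal libraries in genes such as Vcl, Pfn1 and Cfl1.

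Per length of exon (RPKM, CPM per kilobase of exon), the monomer-recycling genes were among the highest of the set in every group. Pfn1 (profilin 1) had group means of 518 ± 271 RPKM in basal, 292 ± 66.5 in luminal and 622 ± 71.3 in mixed libraries (SD, n = 3), and had the highest mean of the 46 in each group. In luminal libraries that place rested on library 2: Pfn1 was at 272, 366 and 237 RPKM in luminal libraries 1 to 3 and Actn4 (alpha-actinin 4) at 275, 220 and 278 RPKM, so the levels of this pair overlapped there. Cfl1 (cofilin 1) followed with 405 ± 156, 206 ± 43.4 and 417 ± 22.9 RPKM (SD, n = 3), with rank 2 in basal and mixed libraries and rank 3 in luminal ones, behind Actn4. In basal libraries the means of Pfn1 and Cfl1 lay closer together than their spread. At the other end Fmnl1, a formin best known from blood cells, had 0.46 ± 0.133, 0.423 ± 0.13 and 0.724 ± 0.37 RPKM (SD, n = 3). In luminal libraries the lowest levels per length were those of Fscn1 (fascin) at 0.229 ± 0.193 and Diaph3 (the formin mDia2) at 0.266 ± 0.0127 RPKM (SD, n = 3), which overlap. In basal libraries the same pair ranked 40 and 39 at 5.41 ± 1.1 and 5.48 ± 2.11 RPKM (SD, n = 3).

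Between luminal and basal aggregates, a few genes of filament elongation, bundling and contraction differed by a large amount, while most of the set did not pass the test. Luminal libraries had lower levels of 11 of the 46 genes and higher levels of 2, by edgeR's quasi-likelihood test with Benjamini-Hochberg adjusted p under 0.05. Of all genes tested, 14.4% were lower and 12.8% higher, so the share of these genes called in either direction, 28.3%, was close to the 27.1% of all genes. Their median log2 difference was -0.28, against -0.025 over all genes. The 11 that fell were Diaph3, Wasf1, Evl, Cfl1, Gsn, Fscn1, Actn1, Flna, Tln1, Myh10 and Tpm1, and the 2 that rose were Cttn and Zyx. With the series as a term, Diaph3, Evl, Gsn, Fscn1, Flna and Myh10 still fell and Cttn still rose (6 lower and 1 higher, beside 6.8% and 7.09% of all genes, and 15.2% of the set in either direction beside 13.9%). Without luminal library 1 the count of lower genes was 7, and without basal library 1, basal library 3, luminal library 1, luminal library 2, mixed library 1 or mixed library 2 the count of higher genes was 1, with Cttn as the gene kept and Zyx as the gene lost. Over all genes, 1907 were lower without luminal library 1, beside 2595 with all libraries. In the fits with 1 gene of the set higher, 1642 to 2174 of all genes were higher, beside 2304 with all libraries.

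**Figure D2:**
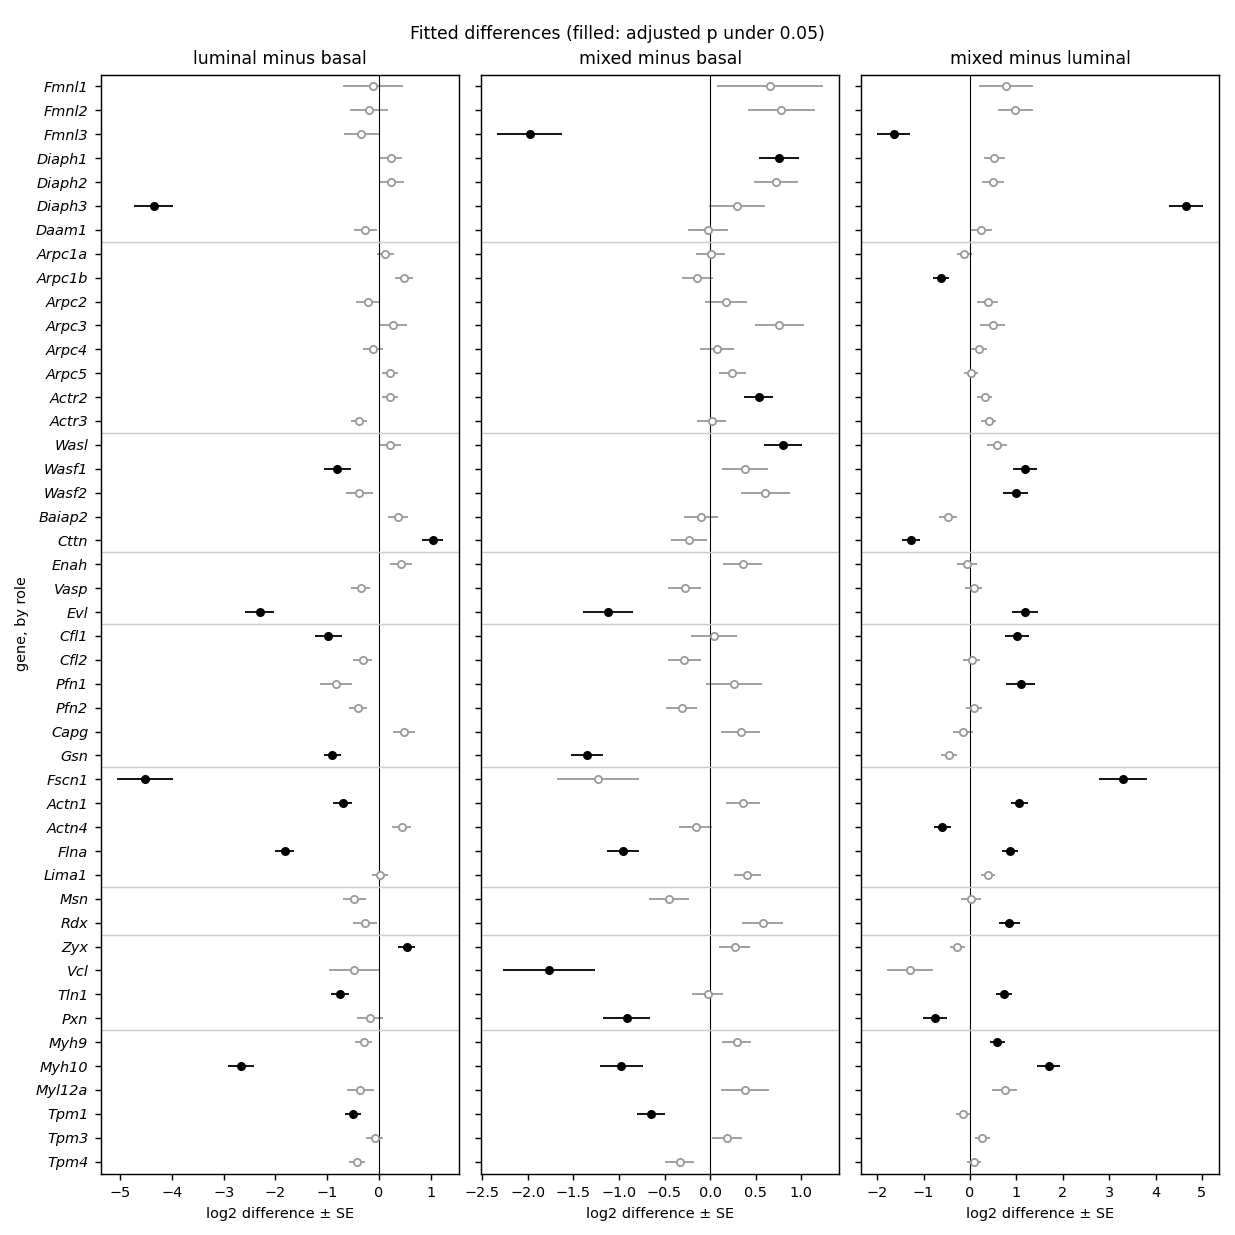
Fitted log2 differences with their standard errors for the 46 genes in luminal against basal, mixed against basal and mixed against luminal aggregates (n = 3 libraries per group; the horizontal scales of the panels differ), with genes past an adjusted p of 0.05 marked. The largest luminal-basal differences are those of Fscn1 (-4.53) and Diaph3 (-4.36), and the mixed-luminal panel shows 13 genes higher and 5 lower.

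With all libraries, 11 genes of the set were called in mixed against basal, beside 13 in luminal against basal. By the same test, 8 of the 46 were lower in mixed libraries (7.33% of all genes) and 3 were higher (6.39% of all genes), together 23.9% of the set beside 13.7% of all genes, with a median of 0.06 log2 units against -0.07 over all genes. The 8 that fell were Fmnl3, Evl, Gsn, Flna, Vcl, Pxn, Myh10 and Tpm1, and the 3 that rose were Diaph1, Actr2 and Wasl. In the fit with the series as a term, Evl, Gsn, Myh10 and Tpm1 fell and no gene of the set rose, beside 1.79% and 2.93% of all genes (4.73% in either direction). At an unadjusted p under 0.05 the edgeR fit with the series gave 9 lower and 1 higher, beside 9.12% and 9.08% of all genes. Basal library 2 had a large part in the counts: without it 11 of the 46 genes were higher and 9 lower, beside 13.9% and 13.1% of all genes. Luminal against basal then had 3 higher and 11 lower, beside 12% and 12.4% of all genes. Which of these comparisons had more calls thus depended on that library. In mixed against basal, the count of higher genes was 0 without basal library 1, basal library 3, mixed library 2 or mixed library 3. It was 1 without luminal library 1, luminal library 2 or mixed library 1. The count of lower genes was 5 without basal library 1 or mixed library 3, 4 without basal library 3 or mixed library 1, and 3 without mixed library 2. Over all genes the counts also fell, from 1153 higher and 1324 lower with all libraries. They were 706 and 470 without basal library 1, and 558 and 405 without basal library 3. Without mixed libraries 1 to 3 they were 774 and 893, 798 and 865, and 889 and 838. Without luminal library 1 and luminal library 2, 986 and 1050 of all genes were higher.

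With all libraries and no series term, mixed against luminal had the most calls of the 3 comparisons. That order did not hold with the series as a term. In mixed libraries 13 of the 46 genes were higher (15.2% of all genes) and 5 were lower (14.2% of all genes), together 39.1% of the set beside 29.4% of all genes, and the median was 0.35 log2 units against -0.05 over all genes. The 13 were Diaph3, Wasf1, Wasf2, Evl, Cfl1, Pfn1, Fscn1, Actn1, Flna, Rdx, Tln1, Myh9 and Myh10, and the 5 were Fmnl3, Arpc1b, Cttn, Actn4 and Pxn. With the series as a term only Diaph3 remained past the threshold, with 1 gene higher and 0 lower, beside 2.05% and 0.67% of all genes (2.72% in either direction). At an unadjusted p under 0.05 that edgeR fit, which reaches the luminal libraries only through the basal ones, gave 4 higher and 2 lower, beside 7.31% and 4.92% of all genes. The count of higher genes was 8 without luminal library 1, and the count of lower genes was 3 without luminal library 3 or mixed library 1, 2 without mixed library 2 or mixed library 3, and 8 without basal library 2. Over all genes, 1623 were higher without luminal library 1, beside 2749 with all libraries. Lower genes numbered 1417 without luminal library 3, and 2128, 2179 and 1854 without mixed libraries 1 to 3. They numbered 3374 without basal library 2, beside 2560 with all libraries. In bulk samples such as these, fewer cells of a type and less RNA per cell cannot be told apart, and a mixed library sums both cell types.

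**Figure D3:**
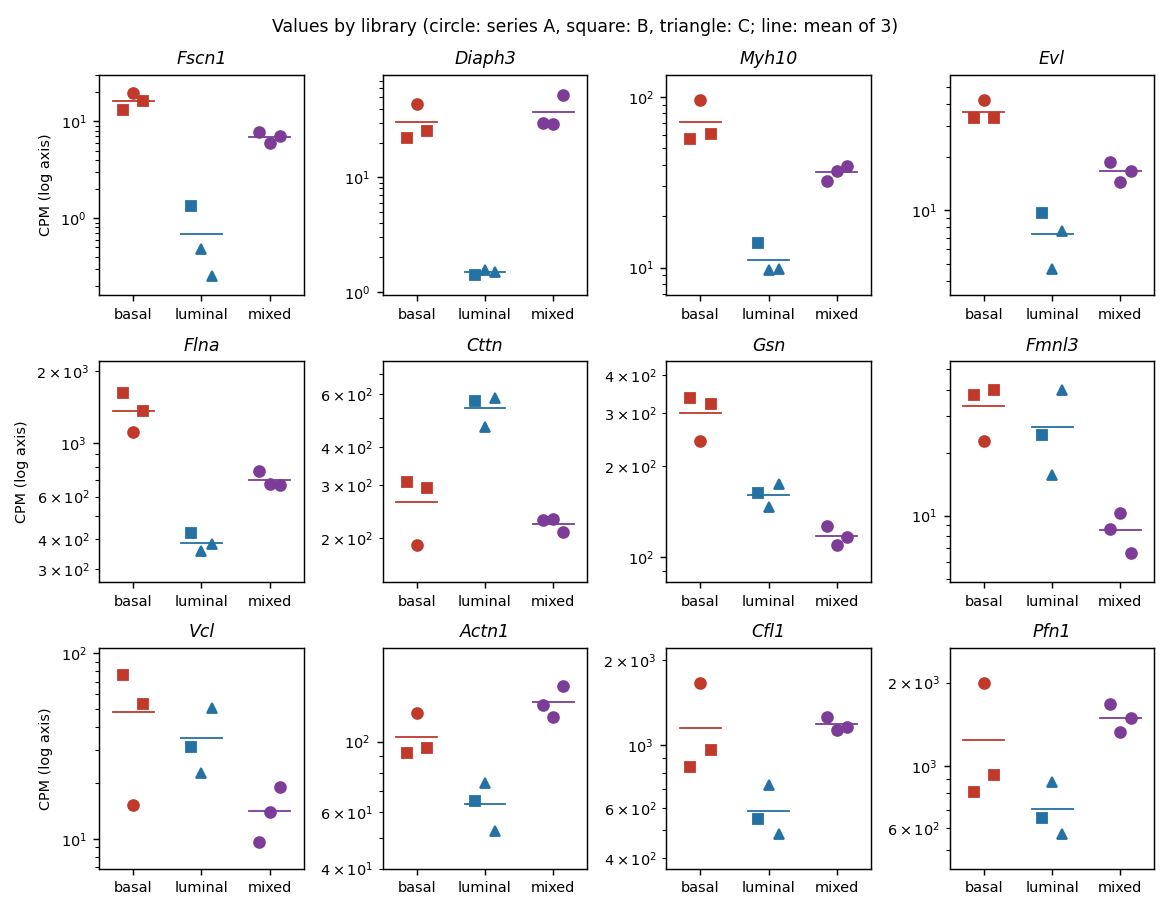
CPM on a log axis of 12 of the genes in each library, by group, with circles for series A, squares for series B and triangles for series C and a line at each group mean (n = 3). The luminal libraries lie below all others for Fscn1, Diaph3, Myh10 and Evl, the mixed libraries lie lowest for Fmnl3, and the circle of basal library 2 sits with the mixed circles for Vcl.

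Among the formins, which start and elongate straight filaments, Diaph3 showed the widest range. Diaph3 (mm39 chr14:86892803-87378671) was at 21.9, 43.9 and 25.7 CPM in basal libraries 1 to 3, at 1.4, 1.54 and 1.49 CPM in luminal libraries and at 29.7, 29.5 and 52.9 CPM in mixed libraries. Every luminal library was far below every other, and the basal and mixed libraries overlapped. The luminal level was lower than the basal level by a log2 difference of -4.36 ± 0.37 (SE; edgeR adjusted p = 5.8e-06), and by -4.08 within the series (adjusted p = 0.00079). Mixed against luminal gave 4.65 ± 0.37 (SE; edgeR adjusted p = 8.8e-06), and 3.85 with the series as a term (adjusted p = 0.014). Mixed against basal was 0.29 ± 0.30 (SE; edgeR adjusted p = 0.55). Expression of the proliferation markers, 18 genes of DNA replication and mitosis, ran the same way: their summed level was between 2500 and 3570 CPM in basal, 132 and 154 CPM in luminal and 2100 and 2490 CPM in mixed libraries, and all 18 fell in luminal against basal and rose in mixed against luminal. Their part in the Diaph3 difference was not tested.

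Fmnl3, a formin that supports filopodia, was lower in the mixed aggregates than in either pure group. Its levels were 37.9, 22.8 and 40 CPM in basal, 24.3, 15.6 and 39.8 CPM in luminal and 8.64, 10.3 and 6.59 CPM in mixed libraries. All mixed libraries lay below all basal and luminal libraries, and the basal and luminal ones overlapped. The mixed level was lower than the basal one by -1.98 ± 0.36 log2 units (SE; edgeR adjusted p = 0.0048) and than the luminal one by -1.64 ± 0.35 (SE; edgeR adjusted p = 0.0066). With the series as a term these were -1.42 (adjusted p = 0.12) and -0.74 (adjusted p = 0.77), so neither was past the threshold there. In edgeR, the test that the mixed level lies outside both pure groups gave an adjusted p = 0.13. Diaph1 (mDia1) rose in mixed against basal libraries by 0.76 ± 0.22 (SE; edgeR adjusted p = 0.044), and by 0.43 within series A (adjusted p = 0.51). The other formins of the set, Fmnl1, Fmnl2, Diaph2 and Daam1, passed in none of the 3 comparisons, and Fmnl2 stood at 7.56, 17.5 and 9.72 CPM in basal, 13.1, 9.38 and 7.84 CPM in luminal and 17.2, 14.7 and 27.9 CPM in mixed libraries.

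The Arp2/3 complex, which starts branched networks at lamellipodia, gave no call between the pure groups. None of its 8 subunits in the set passed in luminal against basal, beside 27.1% of all genes, and 8 genes are too few to set that count apart from this share. Their median difference was 0.17 log2 units. That count depended on the settings: Arpc1b was called higher with relative log expression scaling, DESeq2, limma-voom, a filter of 1 CPM in 3 libraries, and without basal library 2, and Actr3 was called lower with DESeq2 and with library size scaling. Arpc1b, a subunit of the complex's outer part, was at 445, 538 and 513 CPM in basal, 658, 825 and 606 CPM in luminal and 477, 455 and 425 CPM in mixed libraries, and the luminal libraries lay above all others. It fell in mixed against luminal by -0.62 ± 0.17 (SE; edgeR adjusted p = 0.019), and by -0.71 with the series as a term (adjusted p = 0.37), while its luminal against basal value of 0.48 ± 0.17 did not pass (adjusted p = 0.055). Of Arpc1b's exon bases, 18.2% are also covered by Pdap1, so reads there could go to either gene or to none. Actr2 (Arp2), which together with Actr3 forms the seed of the branch, rose in mixed against basal by 0.53 ± 0.16 (SE; edgeR adjusted p = 0.043), and by 0.34 within series A (adjusted p = 0.39). Arpc1a, Arpc2, Arpc3, Arpc4, Arpc5 and Actr3 passed in no comparison.

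Of the Arp2/3 activators, Cttn (cortactin), which stabilises branches and marks invadopodia, was the clearest gene higher in luminal libraries. Its levels were 306, 189 and 294 CPM in basal, 570, 467 and 582 CPM in luminal and 230, 230 and 210 CPM in mixed libraries. Every luminal library exceeded every other, and the mixed libraries fell inside the basal range. Luminal against basal gave 1.04 ± 0.20 (SE; edgeR adjusted p = 0.0023), and 0.93 within the series (adjusted p = 0.0099). Mixed against luminal gave -1.27 ± 0.20 (SE; edgeR adjusted p = 0.0011), but -0.69 with the series as a term (adjusted p = 0.31).

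The WAVE proteins, which switch on Arp2/3, were called in mixed against luminal, and neither passed in mixed against basal. Wasf1 (WAVE1) was at 11.1, 10.7 and 12.7 CPM in basal, 6.42, 6.35 and 6.97 CPM in luminal and 17.6, 13.5 and 13.9 CPM in mixed libraries, and the 3 groups did not overlap in any pair. It was lower in luminal than basal by -0.80 ± 0.26 (SE; edgeR adjusted p = 0.036) and higher in mixed than luminal by 1.19 ± 0.26 (SE; edgeR adjusted p = 0.0066), which became -0.89 (adjusted p = 0.21) and 1.37 (adjusted p = 0.33) with the series as a term. Wasf2 (WAVE2) was at 92.9, 189 and 99.1 CPM in basal libraries, 105, 114 and 74.9 CPM in luminal and 219, 178 and 184 CPM in mixed libraries, so that basal library 2 lay with the mixed ones. Mixed against luminal was 0.98 ± 0.27 (SE; edgeR adjusted p = 0.02), and turned to -0.09 (adjusted p = 0.98) with the series as a term. Wasl (N-WASP), another activator of Arp2/3, rose in mixed against basal by 0.80 ± 0.21 (SE; edgeR adjusted p = 0.028), against 0.39 within series A (adjusted p = 0.42). Baiap2 (IRSp53), which bends membranes, passed in no comparison.

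Of the Ena/VASP proteins, which protect growing filament ends from capping, only Evl was called, in each of the 3 comparisons. Evl (mm39 chr12:108520979-108654775) stood at 33.2, 41.9 and 33.4 CPM in basal, 9.66, 4.63 and 7.66 CPM in luminal and 18.7, 14.5 and 16.7 CPM in mixed libraries. The 3 groups did not overlap, with the mixed libraries between the pure ones. The luminal level was lower than the basal by -2.30 ± 0.28 (SE; edgeR adjusted p = 9.3e-05) and within the series by -1.78 (adjusted p = 0.013). Mixed against basal was -1.12 ± 0.27 (SE; edgeR adjusted p = 0.02) and within series A -1.33 (adjusted p = 0.044), and mixed against luminal was 1.18 ± 0.28 (SE; edgeR adjusted p = 0.0095) and 0.45 with the series as a term (adjusted p = 0.83). Another gene, Degs2, covers 9.5% of Evl's exon bases.

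In monomer supply, severing and capping, the calls fell on Cfl1, Pfn1 and Gsn. Cfl1, which severs old filaments, was at 837, 1661 and 961 CPM in basal, 549, 724 and 486 CPM in luminal and 1259, 1133 and 1166 CPM in mixed libraries. All luminal libraries lay below all others, and basal library 2 lay above every mixed library. Luminal against basal was -0.98 ± 0.26 (SE; edgeR adjusted p = 0.014), and -0.71 within the series (adjusted p = 0.11), and mixed against luminal was 1.02 ± 0.26 (SE; edgeR adjusted p = 0.014), and 0.23 with the series as a term (adjusted p = 0.9). Snx32 covers 16.5% of the exon bases of Cfl1.

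Pfn1, which loads actin monomers with ATP, was at 807, 1995 and 935 CPM in basal, 654, 880 and 571 CPM in luminal and 1670, 1328 and 1490 CPM in mixed libraries. Basal library 2 was the highest library of all 9, above the mixed ones, while basal library 1 lay inside the luminal range. Pfn1 passed in mixed against luminal, at 1.09 ± 0.31 (SE; edgeR adjusted p = 0.023), and was at -0.002 with the series as a term (adjusted p = 1).

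Gsn (gelsolin), which severs and caps filaments in a calcium-dependent way, was lowest in mixed libraries. Its levels were 336, 242 and 322 CPM in basal, 163, 146 and 174 CPM in luminal and 127, 110 and 117 CPM in mixed libraries, and the 3 groups did not overlap. It fell in luminal against basal by -0.90 ± 0.17 (SE; edgeR adjusted p = 0.0021) and by -1.02 within the series (adjusted p = 0.009). It fell in mixed against basal by -1.35 ± 0.17 (SE; edgeR adjusted p = 0.00056) and by -1.04 within series A (adjusted p = 0.0095). Mixed against luminal, at -0.45 ± 0.17 (SE; edgeR adjusted p = 0.065), did not pass, and was at -0.03 with the series as a term. The edgeR test that the mixed level lies outside both pure groups gave an adjusted p = 0.31. Capg, Pfn2 and Cfl2 passed in no comparison.

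Among the bundling and cross-linking genes, Fscn1 (fascin), which packs filaments into filopodial bundles, had one of the 2 largest differences in luminal against basal. It lay within its standard error of Diaph3, and with the series as a term Diaph3 differed by more. Fscn1 (mm39 chr5:142946098-142958940) was at 13, 19.7 and 16.2 CPM in basal, 1.35, 0.475 and 0.249 CPM in luminal and 7.84, 5.97 and 7.03 CPM in mixed libraries, and the luminal libraries held 25, 8 and 4 counts. The groups did not overlap in any pair, and luminal library 1 was the highest of the luminal ones. Luminal against basal was -4.53 ± 0.54 (SE; edgeR adjusted p = 6.9e-05) and -3.43 within the series (adjusted p = 0.0035). Mixed against luminal was 3.30 ± 0.52 (SE; edgeR adjusted p = 0.0011) and 1.93 with the series as a term (adjusted p = 0.27), and mixed against basal, at -1.23 ± 0.45 (SE; edgeR adjusted p = 0.094), did not pass.

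Flna (filamin A), which cross-links filaments into an elastic mesh and binds integrins, was lower in luminal and mixed libraries than in basal ones. It was at 1622, 1110 and 1358 CPM in basal, 422, 358 and 380 CPM in luminal and 766, 676 and 670 CPM in mixed libraries. The groups did not overlap, and on the CPM scale the mixed libraries lay nearer the luminal ones than the basal ones. In the log2 differences with the series as a term, given below, mixed lay nearer basal. Luminal against basal was -1.82 ± 0.18 (SE; edgeR adjusted p = 2e-05), and -1.82 within the series (adjusted p = 0.00042). Mixed against basal was -0.95 ± 0.18 (SE; edgeR adjusted p = 0.0059), or -0.66 within series A (adjusted p = 0.074), and mixed against luminal was 0.86 ± 0.18 (SE; edgeR adjusted p = 0.0051), or 1.16 with the series as a term (adjusted p = 0.065).

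The 2 alpha-actinins of the set, which cross-link antiparallel filaments, were called in opposite directions in mixed against luminal. Actn1 was at 92.2, 123 and 95.6 CPM in basal, 65, 73.9 and 52.6 CPM in luminal and 131, 120 and 149 CPM in mixed libraries, and the luminal libraries lay below all others. Actn1 fell in luminal against basal by -0.70 ± 0.19 (SE; edgeR adjusted p = 0.015) and rose in mixed against luminal by 1.06 ± 0.19 (SE; edgeR adjusted p = 0.0022), or -0.53 (adjusted p = 0.23) and 0.64 (adjusted p = 0.52) with the series as a term. Actn4 was at 1288, 941 and 1265 CPM in basal, 1687, 1347 and 1702 CPM in luminal and 1074, 974 and 1080 CPM in mixed libraries, and fell in mixed against luminal by -0.60 ± 0.18 (SE; edgeR adjusted p = 0.029), or -0.25 with the series as a term (adjusted p = 0.82), while its luminal against basal value of 0.44 ± 0.18 did not pass (adjusted p = 0.096). Lima1 (EPLIN) passed in no comparison.

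Of the linkers between membrane and cortex, Rdx (radixin) was at 146, 267 and 159 CPM in basal, 164, 150 and 162 CPM in luminal and 262, 258 and 335 CPM in mixed libraries, and basal library 2 again lay with the mixed ones. Rdx rose in mixed against luminal by 0.84 ± 0.23 (SE; edgeR adjusted p = 0.018), and was at -0.01 (adjusted p = 1) with the series as a term. Msn (moesin) passed in no comparison.

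Among the focal adhesion genes, the mechanical linker Vcl (vinculin) spanned a wide range in basal libraries. Vcl (mm39 chr14:20979466-21083744) was at 76.5, 15.3 and 53 CPM in basal, 31, 22.7 and 50.6 CPM in luminal and 9.56, 13.9 and 18.9 CPM in mixed libraries. Basal library 2 fell inside the mixed range, and basal and luminal libraries overlapped. Mixed against basal was -1.77 ± 0.50 (SE; edgeR adjusted p = 0.039), but -0.11 within series A (adjusted p = 0.95), where basal library 2 is the only basal library. Ap3m1 covers 25.5% of the exon bases of Vcl. Pxn (paxillin), an adhesion scaffold, fell in mixed against basal by -0.92 ± 0.26 (SE; edgeR adjusted p = 0.038) and in mixed against luminal by -0.74 ± 0.26 (SE; edgeR adjusted p = 0.049), and its values in the fit with the series were -0.29 (adjusted p = 0.68) and 0.10 (adjusted p = 0.98). Zyx (zyxin), which senses tension at adhesions, rose in luminal against basal by 0.54 ± 0.17 (SE; edgeR adjusted p = 0.033), and Tln1 (talin 1), which activates integrins, fell there by -0.76 ± 0.17 (SE; edgeR adjusted p = 0.0068) and rose in mixed against luminal by 0.73 ± 0.17 (SE; edgeR adjusted p = 0.01). Within the series the luminal against basal values were 0.62 for Zyx (edgeR adjusted p = 0.1) and -0.60 for Tln1 (edgeR adjusted p = 0.13). No series holds both mixed and luminal libraries, and with the series as a term mixed against luminal was 0.34 for Tln1 (edgeR adjusted p = 0.77).

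Vcl is the one gene called with a log2 difference of 1 or more in size whose promoter window held a CArG box, the binding motif of serum response factor (SRF), a known regulator of actin genes. The box was searched on both strands in the 300 bases from 250 before to 50 after the RefSeq start (build GRCm38.p6). It was found in 3 of the 43 genes of the set with a window, Arpc4, Vcl and Lima1, or 6.98%, beside 1.81% of the 27025 genes with a window. There was no window in the table for Cttn, Diaph1 and Pxn. The stretch before the Vcl start is shown because it carries the box (GRCm38.p6 chr14:20929148-20929397, plus strand, box in capitals), and the presence of these letters is a description and shows no binding.
Vcl: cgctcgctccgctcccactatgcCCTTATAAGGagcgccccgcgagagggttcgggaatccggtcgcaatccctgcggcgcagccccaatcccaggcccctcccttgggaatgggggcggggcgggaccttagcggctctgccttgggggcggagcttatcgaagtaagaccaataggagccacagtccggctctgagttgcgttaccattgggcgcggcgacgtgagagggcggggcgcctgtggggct

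In non-muscle myosin and tropomyosin, Myh10, the heavy chain of non-muscle myosin IIB, had the largest difference. Myh10 (mm39 chr11:68582385-68707458) was at 56.7, 96.3 and 60.3 CPM in basal, 13.9, 9.67 and 9.83 CPM in luminal and 32.3, 36.8 and 39.5 CPM in mixed libraries. The 3 groups did not overlap and the mixed libraries lay in between. Luminal against basal was -2.67 ± 0.25 (SE; edgeR adjusted p = 1.3e-05) and -2.08 within the series (adjusted p = 0.00079). Mixed against basal was -0.97 ± 0.24 (SE; edgeR adjusted p = 0.021) and -1.41 within series A (adjusted p = 0.0054), and mixed against luminal was 1.70 ± 0.25 (SE; edgeR adjusted p = 0.00066) and 0.66 with the series as a term (adjusted p = 0.49).

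Tpm1, a tropomyosin of stress fibres and of smooth muscle, was at 1018, 1176 and 1015 CPM in basal, 743, 787 and 732 CPM in luminal and 696, 642 and 708 CPM in mixed libraries. The basal libraries lay above all others. Tpm1 fell in luminal against basal by -0.50 ± 0.15 (SE; edgeR adjusted p = 0.027) and in mixed against basal by -0.65 ± 0.15 (SE; edgeR adjusted p = 0.016), with -0.45 (adjusted p = 0.15) and -0.79 (adjusted p = 0.024) in the fit with the series. Myh9, the heavy chain of non-muscle myosin IIA, rose in mixed against luminal by 0.59 ± 0.16 (SE; edgeR adjusted p = 0.018), or 0.31 with the series as a term (adjusted p = 0.72), and Myl12a, Tpm3 and Tpm4 passed in no comparison.

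For related genes, the share that each took of its family, in counts per kilobase, was read as a description with no test. Myh10 took 20.1, 26 and 22.6% of the myosin heavy chains Myh9 and Myh10 in basal, 7.05, 4.57 and 4.91% in luminal and 10.3, 11.7 and 11.4% in mixed libraries. Evl took 22, 23 and 22.7% of the Ena/VASP genes in basal, 8.99, 3.84 and 7.89% in luminal and 14, 11.3 and 16.1% in mixed libraries. Both shares had no overlap between any pair of groups. Diaph3 took 37 ± 4.25% of the diaphanous formins in basal, 2.46 ± 0.256% in luminal and 30.2 ± 7.35% in mixed libraries (SD, n = 3), and Actn1 took 9.25 ± 2.98, 4.38 ± 1.24 and 12.4 ± 0.771% of the alpha-actinins in the same order. The share of Fmnl3 among the FMNL formins was 82, 55.2 and 78.4% in basal, 62.6, 60.1 and 82.4% in luminal and 30.8, 41.3 and 18% in mixed libraries, and the mixed libraries lay below all others.

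**Figure D4:**
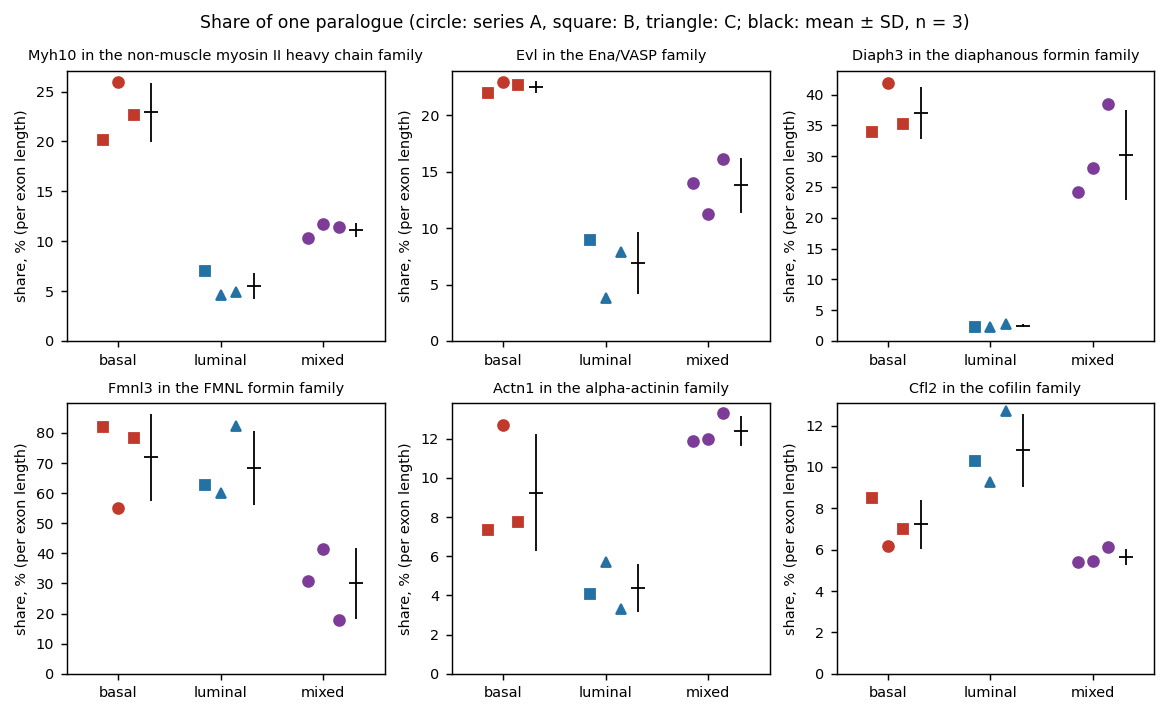
Share of counts per kilobase, in percent, that each of 6 genes took of its family in every library (circles for series A, squares for B, triangles for C), with black marks for the group mean ± SD (n = 3). Myh10 and Evl separate the 3 groups completely, and the share of Cfl2 is highest in luminal libraries, with mean shares of the cofilins of 7.23, 10.8 and 5.66% in basal, luminal and mixed libraries. The level of Cfl2 itself is not highest there: its means were 99.3, 79.8 and 81.6 CPM, beside 1153, 586.5 and 1186 CPM for Cfl1, in the same order.

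The mixed libraries were also placed between the pure groups on the CPM scale, with 0% at the luminal mean and 100% at the basal mean, for the 13 genes called in luminal against basal. Fscn1 lay at 40.1 ± 6.02%, Myh10 at 41.8 ± 6.08%, Evl at 32.4 ± 7.27% and Flna at 32.5 ± 5.48% (SD over the 3 mixed libraries). Zyx lay at 54.7 ± 2.64%, Cfl1 at 106 ± 11.5%, Tln1 at 95.5 ± 36.9% and Cttn at 114 ± 4.26%. Diaph3 lay at 124 ± 46.4% (97.3, 96.7 and 177% by library, so that its mean was above 100% through mixed library 3), and Wasf1 at 172 ± 46.6% and Actn1 at 173 ± 37.4% lay above the basal mean in every mixed library, while Gsn at -31.3 ± 6.25% and Tpm1 at -22.8 ± 11.2% lay below the luminal mean. Fscn1, Myh10, Evl and Flna thus lay between the pure groups. Without basal library 2 the positions of Cfl1 and Diaph3 rose from 106 and 124% to 192 and 161%, and those of Cttn and Tln1 from 114 and 95.5% to 132 and 122%. No gene of the set lay outside both pure groups at an adjusted p under 0.05 (of all genes, 0.0499% lay above and 0.0388% below, together 0.0886%), and at an unadjusted p under 0.05, 5 lay above and 4 below, beside 3.7% and 7.67% of all genes (11.4% together, and 19.6% of the set). DESeq2 gave 1 below, and the share of all genes below in that fit is not given here. Without basal library 2 the adjusted counts were 4 above and 3 below, beside 3.06% and 3.54% of all genes.

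**Figure D5:**
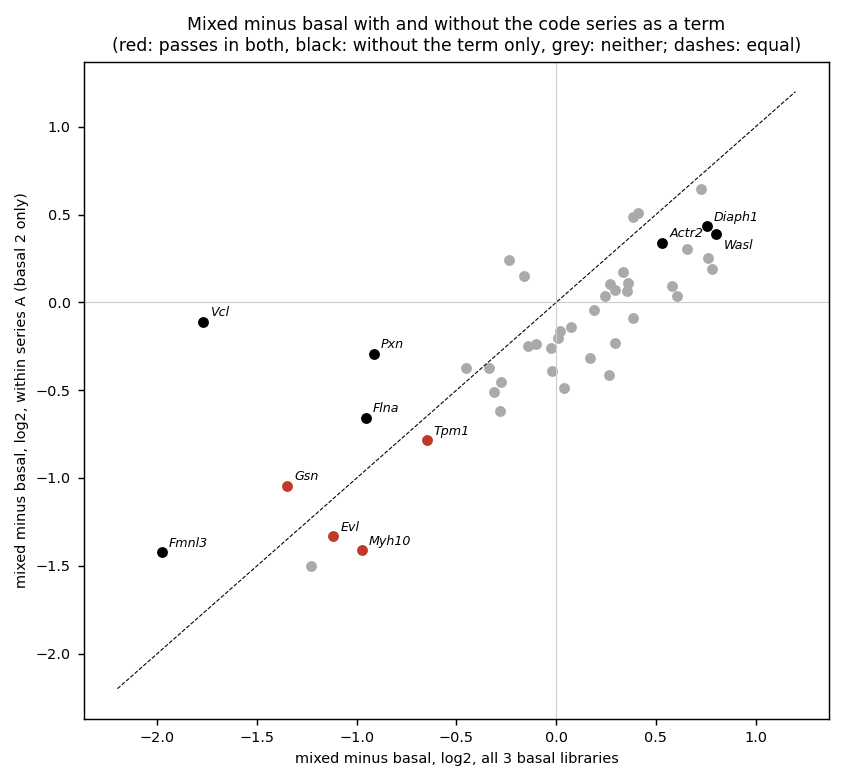
Log2 difference of mixed from basal libraries for the 46 genes, from all libraries (horizontal) against the fit with the series as a term (vertical), which compares the mixed libraries with basal library 2; red genes pass in both fits, black ones only without the term, grey ones in neither, and the dashes mark equal values. Evl lies at -1.12 and -1.33 and Myh10 at -0.97 and -1.41, while Vcl moves from -1.77 to -0.11 and Wasl from 0.80 to 0.39.

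In 28 of the 46 genes (60.9%) basal library 2 lay nearer the mean of the mixed libraries than the mean of basal libraries 1 and 3 on the log2 CPM scale, beside 53.9% of all genes. In the same libraries Cd74 and Lyz2, immune markers, were raised: Cd74 was at 27.3 CPM in basal library 2 against 1.88 and 0.632 CPM in the other basal libraries, and at 26.7, 26.3 and 36.4 CPM in mixed libraries. The 8 immune markers summed to 4.62, 47.6 and 4.02 CPM in basal, 26.3, 22.3 and 53.8 CPM in luminal and 43.8, 66.4 and 58.4 CPM in mixed libraries, and Ptprc, the pan-leukocyte marker, reached at most 0.744 CPM. Cd68, another of these markers, went the other way and made up most of the luminal sums. It was at 2.33, 3.91 and 3.05 CPM in basal, 24.8, 20.9 and 50.2 CPM in luminal and 5.84, 3.81 and 7.35 CPM in mixed libraries. The 7 fibroblast markers summed to 120, 153 and 123 CPM in basal, 11, 6.77 and 10.7 CPM in luminal and 48.4, 51.2 and 71.1 CPM in mixed libraries, with Lum at 1.11 CPM or less in every library. Fbln1 made up most of the basal sum, and the other 6 markers summed to 29.1, 21.5 and 26.6 CPM in basal, 10.4, 6.53 and 9.52 CPM in luminal and 15.9, 22 and 38 CPM in mixed libraries, where basal and mixed libraries overlapped. The 7 endothelial and pericyte markers summed to at most 10.5 CPM. Their part in the differences above was not tested.

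The rest of the actin pathway was read from lists of other genes with roles beside those of the set. The shares of all genes higher and lower were 12.8% and 14.4% in luminal against basal, 6.39% and 7.33% in mixed against basal, and 15.2% and 14.2% in mixed against luminal, and with the series as a term 7.09% and 6.8%, 2.93% and 1.79%, and 2.05% and 0.67%. Of 24 other Arp2/3 and WAVE complex genes 5 rose and 5 fell, 2 rose and 2 fell, and 4 rose and 3 fell in luminal against basal, mixed against basal and mixed against luminal, and with the series as a term 1 and 3, 0 and 0, and 0 and 0, with Baiap2l1 rising by 1.76 ± 0.28 in luminal against basal (SE; edgeR adjusted p = 0.00059). Of 39 other actin-binding genes 7 rose and 10 fell, 6 rose and 4 fell, and 9 rose and 3 fell (with the series as a term 4 and 5, 0 and 2, and 1 and 0), and Palld, which organises stress fibres, fell by -2.74 ± 0.20 in luminal against basal (SE; edgeR adjusted p = 2.3e-06). Tmod3, of the same list, rose there by 1.55 ± 0.18 (SE, edgeR adjusted p = 6.7e-05). Abi2, of the Arp2/3 and WAVE list that holds Baiap2l1, fell in luminal against basal by -1.23 ± 0.21 (SE; edgeR adjusted p = 0.00091). With the series as a term Abi2 was at -1.11. Of 35 other focal adhesion genes 5 rose and 10 fell, 3 rose and 7 fell, and 8 rose and 5 fell, and with the series as a term 4 and 5, 4 and 2, and 1 and 0. Tgfb1i1 (Hic-5), a relative of paxillin, fell by -4.68 ± 0.38 in luminal against basal (SE; edgeR adjusted p = 4.3e-06) where paxillin itself was at -0.17 ± 0.26 (adjusted p = 0.69). Nedd9, of the same list as Tgfb1i1, rose there by 2.99 ± 0.26 (SE, edgeR adjusted p = 6.3e-06). Of 8 SRF and MRTF regulators 1 rose and 3 fell, 1 rose and 2 fell, and 3 rose and 0 fell, and with the series as a term 2 and 2, 0 and 0, and 0 and 0. In luminal against basal Tead4 rose by 2.12 ± 0.31 (SE; edgeR adjusted p = 0.00031). Tead1 fell there by -2.01 ± 0.21 (SE; edgeR adjusted p = 2.9e-05) and Fhl2 by -1.75 ± 0.24 (SE; edgeR adjusted p = 0.00024). With the series as a term these were at 2.42, -1.93 and -1.97. Srf fell in mixed against basal by -0.83 ± 0.21 (SE; edgeR adjusted p = 0.025), and Mrtfa rose in mixed against luminal by 1.01 ± 0.21 (SE; edgeR adjusted p = 0.0054). With the series as a term Baiap2l1 (1.44), Palld, Tmod3 (1.43), Tgfb1i1 (-4.44) and Nedd9 (2.47) kept adjusted p-values of 0.033 or less in edgeR, while Srf (-0.72) and Mrtfa (0.88) were at 0.23 and 0.5.

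The calls on single genes did not all hold when 1 library was left out. In luminal against basal, Diaph3, Evl, Gsn, Fscn1, Flna, Tln1, Myh10 and Cttn passed in each of those fits. Actn1 and Cfl1 reached adjusted p-values of 0.063 and 0.06 without luminal library 3, Tpm1 0.098 without luminal library 1, Wasf1 0.14 without basal library 3 and Zyx 0.12 without luminal library 2 (edgeR), which are the highest values for each. In mixed against basal, Fmnl3, Gsn and Flna passed in each fit. Actr2, Diaph1 and Wasl reached 0.21, 0.15 and 0.13 without basal library 3, Vcl and Pxn 0.17 without basal library 1, Evl and Tpm1 0.068 and 0.067 without mixed library 2, and Myh10 0.071 without mixed library 1. In mixed against luminal, Diaph3, Wasf1, Evl, Fscn1, Actn1, Flna, Tln1, Myh10, Fmnl3 and Cttn passed in each fit. Wasf2, Pfn1, Cfl1 and Pxn reached 0.084, 0.093, 0.06 and 0.17 without luminal library 3, Actn4 and Myh9 0.093 and 0.076 without luminal library 1, and Rdx and Arpc1b 0.07 and 0.064 without mixed library 3.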

How the data were processed

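Per the submitters' processing notes and the file headers, reads were trimmed with Trim Galore and aligned with Subread to mm39, and the authors counted read pairs over exons per gene name with featureCounts 2.0.1, without strand although the library kit is stranded. Reads of a gene and of an overlapping antisense gene therefore cannot be told apart, and multi-mapping reads were left out of the counts. The deposited values are raw counts, beside the summed exon length of each gene name, from which reads per kilobase were computed here. Alignment settings and annotation release: not given in the sources used here. The numbering of libraries in titles and descriptions differs, and the titles' is used. Library totals were between 15585324 and 19164405 counts.

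The tests used edgeR 4.0.16 in R 4.3.3 (filterByExpr, TMM scaling, robust quasi-likelihood fit of 3 groups on all 9 libraries, 6 residual degrees of freedom, two-sided tests, Benjamini-Hochberg adjustment over 18051 genes, threshold 0.05). CPM are TMM-scaled. Calls were also made with limma 3.58.1 and DESeq2 1.42.0. The code was tested on simulated data. The 46 genes and the other lists (4 of the pathway, and markers of proliferating, basal, luminal, fibroblast, immune, and endothelial cells) were chosen with earlier results of these data known. Some further pathway genes are not reported here. Genes past the threshold were named, and those with a log2 difference of at least 1 were given by library. Of other lists, at most the 2 highest and 2 lowest called genes, each averaging 10 CPM or more, could be named. Of the 13 basal markers, 0 rose and 13 fell in luminal against basal, 0 and 7 in mixed against basal, and 11 and 0 in mixed against luminal. Of the 12 luminal markers these counts were 12 and 0, 10 and 0, and 2 and 6. Proliferation markers gave 0 and 2 of 18 in mixed against basal. Of 6 fibroblast markers tested the counts were 0 and 3, 0 and 1, and 3 and 0, of 4 immune markers 1 and 2, 0 and 0, and 2 and 1, and of 3 endothelial and pericyte markers 0 and 1, 0 and 0, and 1 and 0.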

Additional observations from a re-analysis of the deposited data

How the results depend on the processing

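Direction changed in 4 results, all mixed against luminal with the code series as a term, an alternative chosen after seeing the data: Wasf2 went to -0.095, Pfn1 to -0.002, Rdx to -0.007 and Pxn to 0.098. In that fit the genes of the set called higher and lower numbered 1 and 6 in luminal against basal, 0 and 4 in mixed against basal, and 1 and 0 in mixed against luminal. Scaling by library size gave 1 higher and 17 lower in luminal against basal and 1 higher in mixed against basal, where the median of all genes moved to -0.166 and -0.221. Over all genes that scaling called 1750 higher and 3249 lower in luminal against basal, and 951 higher in mixed against basal. DESeq2 gave 4 higher in luminal against basal, 5 higher in mixed against basal, 8 lower in mixed against luminal and 1 below both pure groups. It called 2794 of all genes higher in luminal against basal, 1664 higher in mixed against basal and 3391 lower in mixed against luminal. Without a filter on low counts 3 lay below both, and with only the 2 groups compared luminal against basal had 1 higher (2370 of all genes). Leaving out 1 library at a time gave 1 to 3 higher and 7 to 11 lower in luminal against basal, 0 to 11 higher and 3 to 9 lower in mixed against basal, 8 to 18 higher and 2 to 8 lower in mixed against luminal, and 0 to 4 above and 0 to 3 below both pure groups. Over all genes these fits gave 1642 to 2533 higher and 1907 to 2860 lower in luminal against basal. They gave 558 to 2627 and 405 to 2493 in mixed against basal, and 1550 to 3400 and 1417 to 3374 in mixed against luminal. Shares of all genes outside both pure groups are given only for the main fit and the fit without basal library 2. Shares without division by exon length became 11.3% for Actn1 in mixed libraries, 19.4 and 9.2% for Myh10 and 18.9 and 9.94% for Evl in basal and mixed, 30.7 and 1.85% for Diaph3 in basal and luminal, and 6.44% for Cfl2 in mixed. The cause of these shifts was not tested. Same-numbered libraries did not deviate together (r from -0.166 to 0.201, and 4 of 9 libraries were closest to their own number), so the replicate block is an alternative only. With it the counts were 2 and 10, 2 and 7, and 15 and 4, beside 2154 and 2394, 1119 and 1008, and 2695 and 2311 of all genes. Wasf1 was lost in luminal against basal, Actr2, Diaph1 and Pxn in mixed against basal, and Pxn in mixed against luminal. Low counts limit Fscn1 in luminal libraries.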
